A study of Homo sapiens with 12 samples.

Results

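Oxidative phosphorylation was followed through the RNAs of its protein subunits. The members were all genes whose symbol starts with NDUFA, NDUFB, NDUFC, NDUFS or NDUFV, the genes SDHA to SDHD, those starting with UQCR, COX4 to COX8 or ATP5, and the 13 protein genes of mitochondrial DNA (prefix MT-). Pseudogene symbols, 180 in all, were dropped. The rule found 117 genes among 60676 gene rows, 104 nuclear and 13 mitochondrial. Of these, 103 had a total of at least 100 fragments over all libraries (90 nuclear, 13 mitochondrial), and the same 103 passed the filter on low counts and were tested. The libraries came from A549, an established human lung adenocarcinoma line, in 4 groups of 3: cells with an empty lentiviral vector (Co.vec) or a vector expressing the long non-coding RNA LETS1, treated for 4 h with either ligand buffer or 5 ng/mL TGF-β. All 4 groups were transduced and selected with puromycin, and the labels do not say whether each replicate had its own transduction, so p-values measure only the spread between these samples.

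Oxidative phosphorylation passes electrons from NADH through complex I, and from succinate through complex II, to complex III, cytochrome c and complex IV, where oxygen is reduced. Complexes I, III and IV move protons across the inner mitochondrial membrane, and complex V, the ATP synthase, uses their return to make ATP. Mitochondrial DNA encodes core subunits of complexes I, III, IV and V and is transcribed from both strands as long precursors that are cut at transfer RNAs. The other subunits, all of complex II among them, are made from nuclear genes, many of which carry binding sites for NRF1, GABP and YY1 near their start.

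Libraries held 19705135 to 20351043 fragments counted in genes. Replicates differed by more than counting error (chi-square per degree of freedom from 2.16 to 5.24). Of 8 markers of A549 and epithelial cells, KRT8, KRT18, AKR1B10 and ALDH3A1 were abundant and EPCAM was low (1785 fragments over 12 libraries). In each comparison of LETS1 with Co.vec, 6 of the 8 were lower (75%, against 6.56% of all genes in buffer and 6.5% with TGF-β). Among 9 markers of other cells, PTPRC, CD3E and CD68 had 5, 1 and 1 fragments over all libraries. Of the 9, 4 were tested. With LETS1, 3 of these 4 were higher in buffer (75%, against 8.57% of all genes) and 2 with TGF-β (50%, against 7.58%). The summed level of the 9 ran from 18.0 to 18.8 CPM (a gene's count scaled to library size) in Co.vec buffer, 123.5 to 131.7 in Co.vec TGF-β, 24.9 to 30.9 in LETS1 buffer and 135.9 to 152.7 in LETS1 TGF-β libraries, most of it COL1A1. The part of these markers in the results was not tested.

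The RNAs of the system were dominated by the mitochondrial genome. The 13 mitochondrial genes took 7.71% to 9.55% of the fragments counted in genes, and the 90 nuclear members together took 0.686% to 0.785%. Mitochondrial fragments thus outnumbered nuclear ones 10.6 to 12.5 times. Per kilobase of exon in Co.vec buffer cells, the median nuclear member stood at 20 CPM per kb and the highest, ATP5F1B (catalytic beta subunit of the ATP synthase), at 432 CPM per kb. MT-CO1, the catalytic subunit of complex IV, reached 16798 CPM per kb, MT-CO2 16130 and MT-CO3 14405. Exon length here merged all annotated exons of a gene, 10908 bases for ATP5F1A and 1542 for MT-CO1. Where the merged length exceeds that of a transcript, the value per kilobase is too low, so the gap between the 2 genomes is not a difference per transcript.

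The ratio of mitochondrial to nuclear fragments was 11.2, 11.3 and 11.8 in the Co.vec buffer libraries and 11.4, 10.6 and 12.3 in the Co.vec TGF-β libraries. It was 10.96, 12.5 and 11.6 in LETS1 buffer and 10.7, 11.2 and 11.7 in LETS1 TGF-β. All groups overlapped. On the log2 scale the means were 3.51 ± 0.04, 3.51 ± 0.10, 3.54 ± 0.09 and 3.48 ± 0.06 (SD, n = 3 each, in the same order), and differences between groups ran from -0.06 to 0.03, smaller than the pooled SD of 0.08. No test was made on this summed value.

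The members' shares of raw gene fragments use no scaling factor, while the fold changes depend on the scaling. TMM factors, which the tests use, were 1.01 to 1.03 in buffer and 0.973 to 0.987 in TGF-β libraries. After that scaling the median log2 fold change of the nuclear members with TGF-β was -0.06 in Co.vec cells (18 of 90 above 0) and 0.01 in LETS1 cells (51 of 90 above 0). For the mitochondrial genes it was -0.11 (2 of 13 above 0) and -0.08 (3 of 13 above 0). In bulk RNA, fewer cells of a type and less RNA per cell cannot be told apart. Nuclear members took 0.742% to 0.780% of raw gene fragments in Co.vec buffer and 0.686% to 0.728% in Co.vec TGF-β libraries, which did not overlap. In LETS1 cells the shares were 0.744% to 0.785% in buffer and 0.728% to 0.752% with TGF-β, which did. The 13 mitochondrial genes took 8.29% to 9.18% in Co.vec buffer and 7.71% to 8.41% with TGF-β, an overlap, against 8.60% to 9.55% and 8.04% to 8.55% in LETS1 cells, no overlap. The share of unaligned fragments moved with the ligand too, from 3.25% to 3.4% in Co.vec buffer to 3.83% to 4.27% with TGF-β and from 2.93% to 3.80% to 3.82% to 4.00% in LETS1 cells, and its part in these shares was not tested.

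**Figure D1:**
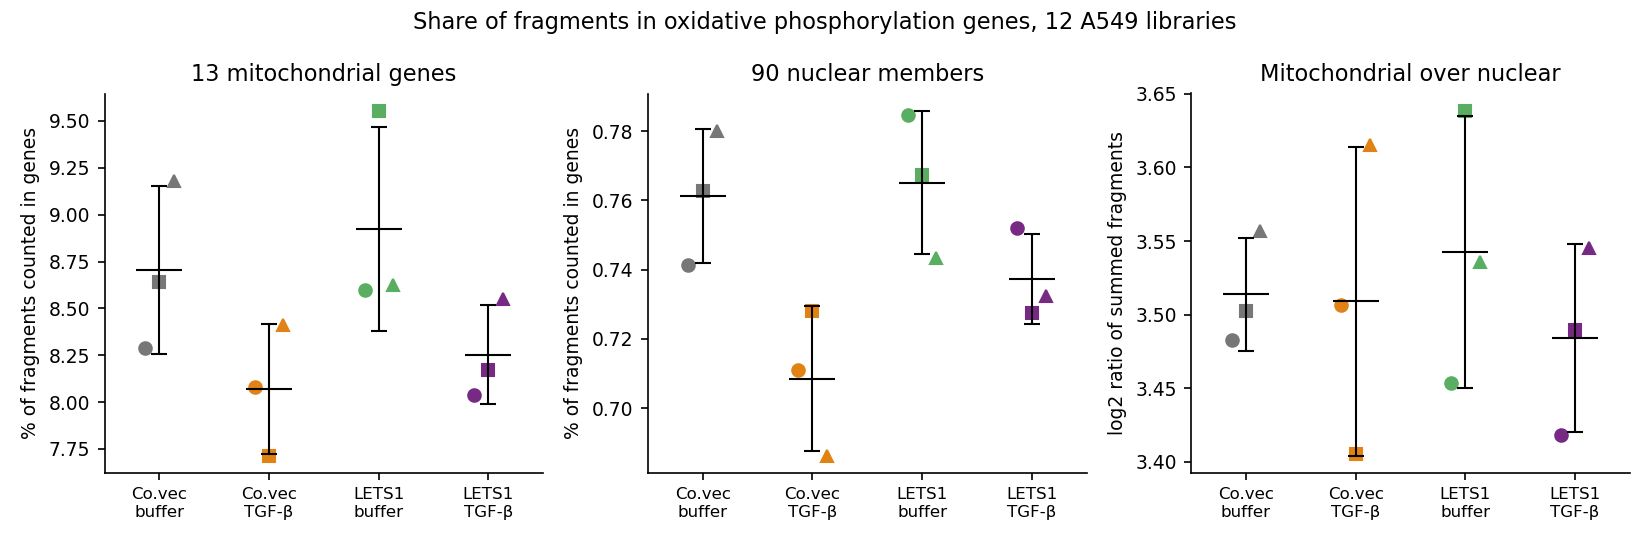
Share of raw gene fragments, before TMM scaling, in the 13 mitochondrial genes (left) and the 90 nuclear members (middle), in percent, and the log2 ratio of the 2 sums (right), for each of 12 libraries. Circles, squares and triangles are replicates 1, 2 and 3, and bars are mean ± SD of 3. Mean raw shares were lower with TGF-β. After TMM scaling the nuclear members' median log2 fold change with TGF-β was -0.06 in Co.vec and 0.01 in LETS1 cells. For the mitochondrial genes it was -0.11 and -0.08. The ratio overlapped across all groups. The axes do not start at 0.

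Across all 16192 genes tested, LETS1 against Co.vec in buffer called 8.57% higher and 6.56% lower (edgeR quasi-likelihood, adjusted p under 0.05). Of the 90 nuclear members 1 was higher and 1 lower, and of the 13 mitochondrial members 0 passed in edgeR and 0 in DESeq2, with 5 at an unadjusted p under 0.05. With TGF-β present, LETS1 called 7.58% of all genes higher and 6.5% lower. Then 6 nuclear members were higher and 0 lower in edgeR (0 in DESeq2, 1 at an unadjusted p under 0.05), and 0 mitochondrial members passed (1 unadjusted, 1 in DESeq2). TGF-β against buffer called 21.1% of all genes higher and 18.6% lower in Co.vec cells. There 0 nuclear members were higher in edgeR (0 in DESeq2, 2 at an unadjusted p under 0.05) and 8 lower, and 2 mitochondrial members were lower. In LETS1 cells TGF-β called 19.7% of all genes higher and 19.1% lower, against 1 nuclear member higher, 1 lower, and 1 mitochondrial member lower.

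In every one of these comparisons the share of nuclear members called in a direction was below that of all genes, at most 8.89% where 18.6% was the background. The median log2 fold change of the 90 nuclear members was -0.03 and 0.04 for LETS1 in buffer and with TGF-β, and -0.06 and 0.01 for TGF-β in Co.vec and LETS1 cells. For the 13 mitochondrial members the medians were 0.04, 0.05, -0.11 and -0.08, and for all genes 0.01, -0.00, -0.02 and -0.02. The 95% interval of the log2 fold change lay within 0.5 of 0 for 78 to 80 of the 90 nuclear members in each comparison. Among all 16192 genes it did so for 10878 and 10875 with LETS1 in buffer and under TGF-β. For TGF-β in Co.vec and LETS1 cells these were 9170 and 9195 genes. The median SE was lower for nuclear members than for all genes in each comparison, at 0.063 against 0.083 for TGF-β in Co.vec cells. These counts therefore depend on precision as well as on the size of the changes.

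The interaction asks whether the ligand response differed between LETS1 and Co.vec cells, and 0.679% of all genes passed. No member passed in edgeR or DESeq2 (0 of 90 and 0 of 13), and 4 nuclear members and 1 mitochondrial member had an unadjusted p under 0.05. NDUFA6 had the smallest of these, with an interaction of 0.22 on the log2 scale (SE 0.0812, adjusted p = 0.399). For no single member was the ligand response therefore shown to differ between Co.vec and LETS1 cells. The median interaction was 0.07 for nuclear members (73 of 90 above 0) and 0.02 for mitochondrial members (8 of 13 above 0). For all genes it was -0.005 (7836 of 16192 above 0). These medians were not tested. The comparisons share groups, so their counts are not independent of each other.

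**Figure D2:**
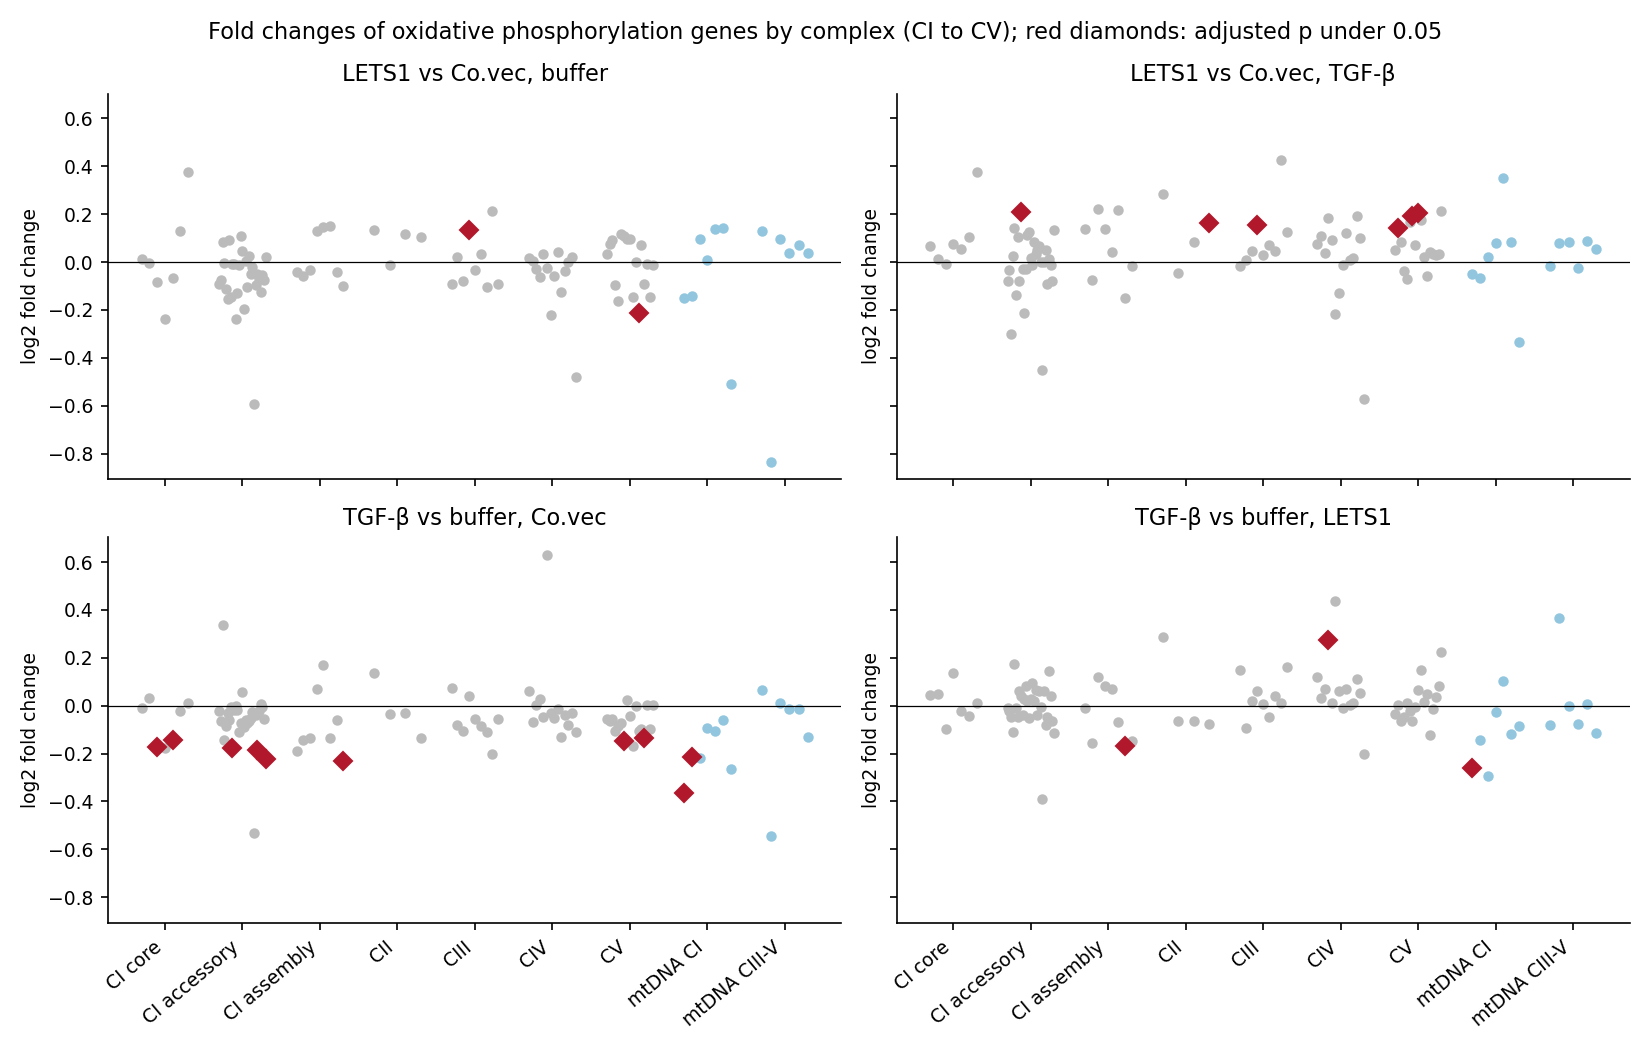
Log2 fold change of each tested member (1 point a gene) by complex, in the 4 comparisons of 2 groups. Grey points are nuclear and blue points mitochondrial members that did not pass, and red diamonds have an edgeR adjusted p under 0.05. The 2 antisense or divergent RNAs are left out. Most points lie near 0, and several of those farthest from 0, such as MT-ATP8, NDUFB8 and COX6B2, did not pass.

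Among mitochondrial members, MT-ND1 passed in both comparisons of TGF-β with buffer. It is a membrane subunit of complex I and the first protein gene of the heavy-strand transcript (ENSG00000198888, mitochondrial genome, 3307 to 4262, GENCODE 29). It stood at 6135, 6987 and 7172 CPM in Co.vec buffer and 5630, 5315 and 4837 CPM with TGF-β. LETS1 cells had 5767, 6456 and 6053 CPM in buffer and 4634, 5059 and 5545 CPM with the ligand. Every TGF-β library lay below every buffer library of the same vector. MT-ND1 fell by 0.36 on the log2 scale in Co.vec cells (SE 0.0719, edgeR adjusted p = 0.000636) and by 0.26 in LETS1 cells (SE 0.0719, adjusted p = 0.00791). Both calls held with each library left out, at adjusted p up to 0.0124 and 0.0338.

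MT-ND2, the next gene along the strand and also of complex I, stood at 5228, 6005 and 6074 CPM in Co.vec buffer and 4975, 4766 and 5166 CPM with TGF-β. It fell by 0.22 in Co.vec cells (SE 0.0745, edgeR adjusted p = 0.0317). The call was lost without any of 5 of the 6 Co.vec libraries, all but buffer replicate 1, at adjusted p up to 0.174, and in DESeq2. In LETS1 cells its log2 fold change was -0.14 (adjusted p = 0.15).

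The genes farther along the heavy strand gave no call. For TGF-β in Co.vec cells the log2 fold change was 0.01 for MT-CO1, -0.01 for MT-CO2, 0.06 for MT-ATP6 (the proton channel subunit of complex V) and -0.01 for MT-CO3. It was -0.22 for MT-ND3, -0.11 for MT-ND4L, -0.09 for MT-ND4, -0.06 for MT-ND5 and -0.13 for MT-CYB, the only mitochondrial subunit of complex III. The 95% intervals of MT-CO1 ran from -0.08 to 0.10 in Co.vec cells and from -0.09 to 0.09 in LETS1 cells, so larger changes of that RNA were outside them. For MT-ND3 the interval was wide, from -0.63 to 0.19.

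The ribosomal RNAs, which precede MT-ND1 on the same strand, went different ways. MT-RNR1, the small ribosomal RNA, stood at 2772, 2868 and 2950 CPM in Co.vec buffer and 2395, 2417 and 2125 CPM with TGF-β, and at 2540, 2448 and 2413 against 1993, 1936 and 2186 CPM in LETS1 cells. It fell by 0.31 (adjusted p = 1.52e-06) and by 0.28 (adjusted p = 1.08e-05) with the ligand. With LETS1 it fell by 0.21 in buffer (adjusted p = 0.00104) and by 0.18 with TGF-β (adjusted p = 0.00652, but 0.086 without LETS1 TGF-β replicate 2). MT-RNR2, the large ribosomal RNA between MT-RNR1 and MT-ND1, had a log2 fold change of -0.01 and 0.01 with TGF-β (adjusted p = 0.85 and 0.826). Whether the libraries were made by poly(A) selection is not given in the sources used here.

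MT-ND6 is the 1 member encoded on the light strand. Its levels were 440, 479 and 581 CPM in Co.vec buffer, 426, 491 and 334 in Co.vec TGF-β, 319, 442 and 292 in LETS1 buffer and 340, 297 and 356 in LETS1 TGF-β. The groups overlapped, and the log2 fold change for LETS1 in buffer was -0.51 with a 95% interval from -0.96 to -0.06 (adjusted p = 0.138). MT-TP, a transfer RNA of the same strand, did pass: it fell by 0.22 and 0.24 with LETS1 (adjusted p = 0.00964 and 0.006) and rose by 0.22 and 0.21 with TGF-β (adjusted p = 0.00318 and 0.00573). The first and the last of these calls were lost without LETS1 buffer replicate 3 (and without Co.vec buffer replicate 3 or LETS1 TGF-β replicate 3, respectively), at adjusted p up to 0.146 and 0.104. MT-TP had 21640 fragments over all libraries, MT-TF 14 and every other mitochondrial transfer RNA gene 0. The strand setting is not stated, and whether the MT-TP row counts the transfer RNA itself was not tested. MT-ND4L had a log2 fold change of 0.35 for LETS1 with TGF-β, where the groups did not overlap (adjusted p = 0.0704).

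Mitochondrial members were counted deeply but varied between replicates. Their median coefficient of variation within groups was 7.7%, against 0.318% from counting alone, and ran from 3.86% for MT-CO1 to 36.8% for MT-ATP8. For nuclear members the median was 6.24%, against 3.14% from counting. MT-ATP8 had 574 fragments in all, beside 1188339 for MT-ATP6, whose reading frame starts inside it. The overlap is shown because fragments that match 2 genes were set apart in the deposited table. Capitals mark the start codon of MT-ATP6 (GENCODE 29 transcripts, 46 shared bases).
MT-ATP8 and MT-ATP6 overlap (chrM:8527-8572, plus strand): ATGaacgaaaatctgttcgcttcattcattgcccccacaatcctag

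Nuclear copies of mitochondrial DNA took few fragments, 5.41 to 7.17 for every 1000 of the 13 genes. The main one was MTATP6P1 with 97554 fragments, 8.21% of those of MT-ATP6 and 98.5% identical to it, so the split between these 2 rows is uncertain. MTND1P23 held 270 fragments, 0.0194% of those of MT-ND1.

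**Figure D3:**
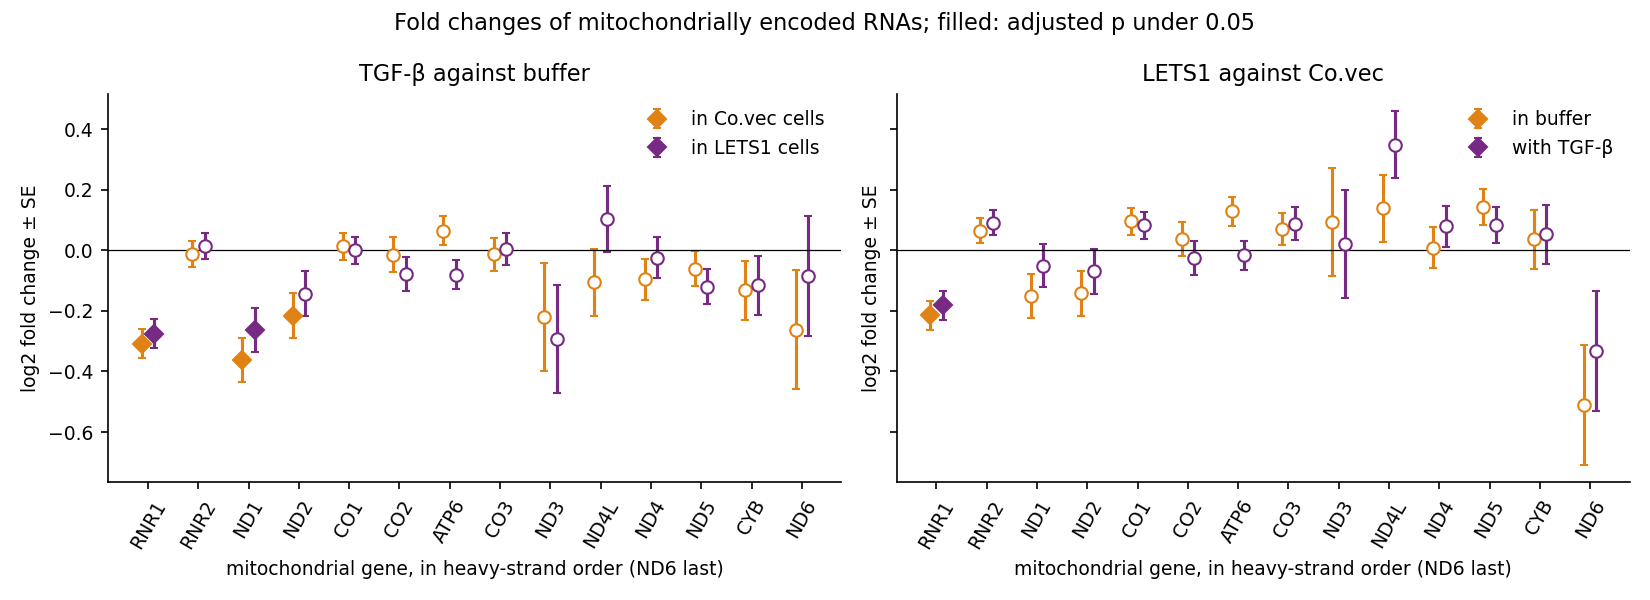
Log2 fold change ± SE of the mitochondrial RNAs in their order along the heavy strand, with MT-ND6 last, for TGF-β against buffer (left) and LETS1 against Co.vec (right). Orange marks Co.vec cells (left) or buffer (right), and purple LETS1 cells or TGF-β. Filled diamonds have an edgeR adjusted p under 0.05 and open circles do not. MT-ATP8 is left out for its low counts. MT-RNR1 and MT-ND1 fell with TGF-β in both cell populations, while MT-RNR2 and MT-CO1 lay near 0.

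Complex I is the largest complex, with 7 nuclear core subunits, 29 accessory subunits and 8 assembly factors (NDUFAF) tested. TGF-β in Co.vec cells lowered 2, 3 and 1 of these (28.6%, 10.3% and 12.5%, against 18.6% of all genes). NDUFV3, an accessory subunit of the module that oxidises NADH (ENSG00000160194, chromosome 21, 42879644 to 42913304), stood at 35.4, 36.3 and 37.8 CPM in buffer and 31.8, 31.4 and 30.5 CPM with TGF-β. All buffer libraries were higher. It fell by 0.22 (SE 0.0616, edgeR adjusted p = 0.00323) and kept the call with each library left out (adjusted p up to 0.0276). LETS1 cells had 36.6, 37.7 and 36.9 CPM in buffer and 36.5, 31.4 and 35.0 CPM with TGF-β.

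NDUFA6, an accessory subunit of the LYR family, had 54.0, 52.4 and 55.9 CPM in Co.vec buffer, 48.8, 49.2 and 45.6 in Co.vec TGF-β, 57.1, 48.9 and 55.3 in LETS1 buffer and 57.2, 55.1 and 53.5 in LETS1 TGF-β. The Co.vec TGF-β libraries were lower than all libraries of the groups they were compared with. It fell by 0.18 with TGF-β in Co.vec cells (adjusted p = 0.0135) and was higher by 0.21 with LETS1 under TGF-β (adjusted p = 0.0108). Neither call held without Co.vec TGF-β replicate 3, the first was also lost without Co.vec buffer replicate 3, and the second without LETS1 TGF-β replicate 1. The highest adjusted p over left-out libraries were 0.0878 and 0.0713.

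The assembly factor NDUFAF8 had 55.0, 61 and 64.4 CPM in Co.vec buffer and 52.5, 54.4 and 47.0 CPM with TGF-β, and fell by 0.23 (adjusted p = 0.00455). The core subunit NDUFS3, of the arm that leads electrons to ubiquinone, had 66.2, 65.4 and 70.4 CPM in buffer and 61.9, 63.8 and 53.8 CPM with TGF-β, and fell by 0.17 (adjusted p = 0.0181). In neither gene did the groups overlap. Both calls were lost without Co.vec buffer replicate 3 or Co.vec TGF-β replicate 3, at adjusted p up to 0.0537 and 0.228.

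NDUFC1 and the iron-sulfur subunit NDUFS8 fell by 0.18 (adjusted p = 0.0458) and 0.14 (adjusted p = 0.0448), and these calls were lost in 7 and 8 of 12 left-out fits (adjusted p up to 0.179 and 0.337) and each in 4 of 6 other settings, the replicate block, scaling on nuclear genes alone and DESeq2 among them (adjusted p up to 0.112 and 0.0848). The assembly factor NDUFAF7, an arginine methyltransferase, fell by 0.17 with TGF-β in LETS1 cells (adjusted p = 0.0464), a call lost in 8 of 12 (adjusted p up to 0.197) and in all 6 other settings (adjusted p up to 0.204). The core subunits NDUFS1 and NDUFV1, which carry electrons from NADH, gave no call: NDUFS1 was at 123.8 ± 3.98 CPM in Co.vec buffer and 122.9 ± 2.77 with TGF-β, and 125.1 ± 1.67 and 128.9 ± 3.92 in LETS1 cells (SD, n = 3). NDUFV1 had a log2 fold change of 0.13 for LETS1 in buffer (95% interval 0.03 to 0.23, adjusted p = 0.0788).

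**Figure D4:**
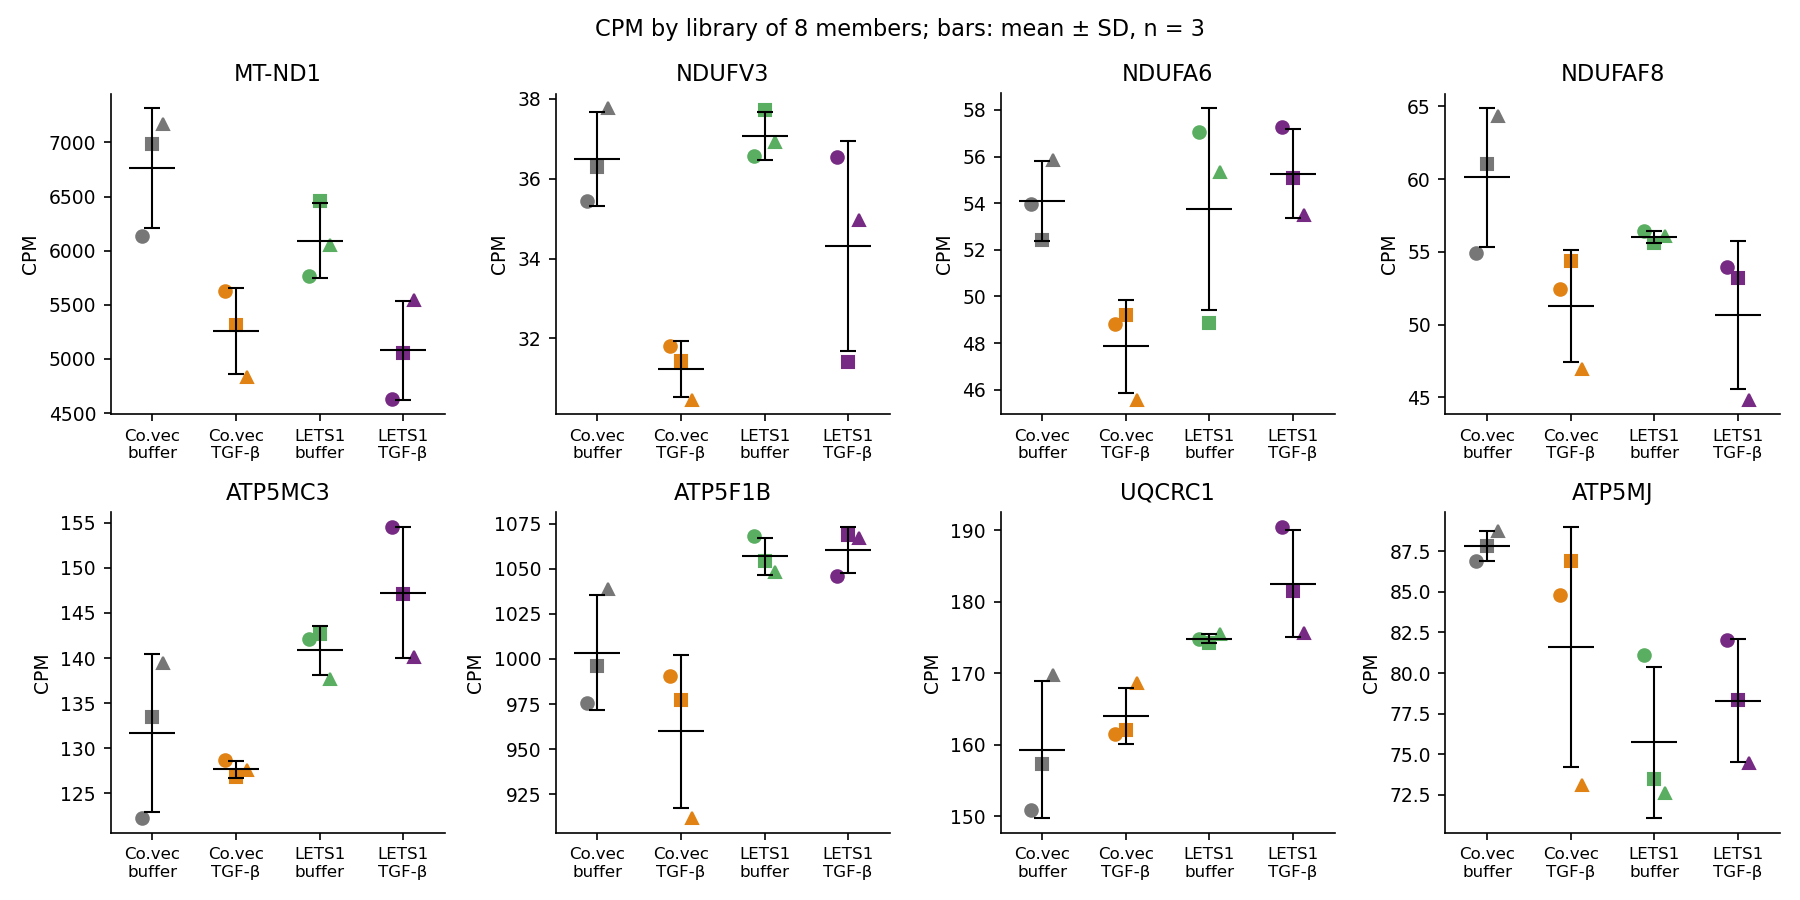
CPM by library of MT-ND1 and 7 nuclear members that passed in at least 1 comparison. Circles, squares and triangles are replicates 1, 2 and 3, and bars are mean ± SD of 3. MT-ND1 and NDUFV3 were lower with TGF-β in every Co.vec library, and ATP5MC3 was higher in every LETS1 TGF-β library than in every Co.vec TGF-β library. The axes do not start at 0.

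Complex II, succinate dehydrogenase, links the citric acid cycle to the chain. SDHD, a membrane anchor, had 38.7, 40.8 and 38.0 CPM in Co.vec TGF-β and 42.8, 43.4 and 45.2 CPM in LETS1 TGF-β libraries, with no overlap. It was higher by 0.16 (adjusted p = 0.0478), a call that among the 12 left-out fits held only without Co.vec buffer replicate 1 or Co.vec TGF-β replicate 2 (adjusted p up to 0.147). It was also lost in 4 of 6 other settings, no filter, the replicate block, the libraries of the contrast alone and DESeq2 (adjusted p up to 0.0958). The iron-sulfur subunit SDHB had log2 fold changes from -0.06 to -0.01 over the 4 comparisons and passed in none. SDHA, the flavoprotein, had 504 fragments in all and 1.86 ± 0.496 CPM in Co.vec buffer (SD, n = 3). SDHA has near-identical pseudogene copies, so its count is uncertain.

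In complex III, the core subunit UQCRC1 passed in both comparisons of LETS1. It stood at 151, 157 and 170 CPM in Co.vec buffer, 161, 162 and 169 in Co.vec TGF-β, 175, 174 and 175 in LETS1 buffer and 190, 181 and 176 in LETS1 TGF-β. All 6 LETS1 libraries were above all 6 Co.vec libraries. UQCRC1 was higher by 0.13 in buffer (SE 0.0457, adjusted p = 0.0403) and by 0.15 with TGF-β (SE 0.0456, adjusted p = 0.0172), calls lost in 7 and 4 of 12 left-out fits (adjusted p up to 0.212 and 0.139). The call in buffer was also lost with no filter, the replicate block, scaling on nuclear genes alone and DESeq2 (adjusted p up to 0.126), and the call with TGF-β in none of the 6 other settings. UQCRFS1, the Rieske iron-sulfur protein, was at 330 ± 13, 311 ± 14.4, 338 ± 11.8 and 327 ± 3.88 CPM (SD, n = 3, in Co.vec buffer, Co.vec TGF-β, LETS1 buffer and LETS1 TGF-β) and passed in none.

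Complex IV gave 1 nuclear call among 14 members, a rise with TGF-β in LETS1 cells (7.14%, against 19.7% of all genes). COX6A1 had 8.45, 7.90 and 6.45 CPM in LETS1 buffer and 10.4, 8.38 and 8.79 with TGF-β, an overlap of the 2 groups. It was higher by 0.27 (adjusted p = 0.0488), and the call was lost without LETS1 buffer replicate 2 or 3, without LETS1 TGF-β replicate 1 or 3 (adjusted p up to 0.295) and in DESeq2. COX4I1, the common form of subunit 4, was at 227 ± 16.2 CPM in Co.vec buffer and 236 ± 15.2 with TGF-β (SD, n = 3). Its hypoxia-linked paralogue COX4I2 had 1 fragment over all libraries. COX5A, COX7A2, COX7A2L and NDUFA4 had log2 fold changes from -0.07 to 0.12 and passed in none. The tissue-restricted forms COX6A2 and COX7A1 had 0 and 37 fragments over all libraries, and NDUFA4L2, a hypoxia-linked paralogue of NDUFA4, had 165.

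Complex V gave 3 rises with LETS1 under TGF-β, 1 of 5 members of the catalytic head (F1) and 2 of 11 of the Fo part and stalk. These were 20% and 18.2%, against 7.58% of all genes higher. ATP5MC3, 1 of 3 genes for the rotor subunit c (ENSG00000154518, chromosome 2, 175176258 to 175184607), had 129, 127 and 128 CPM in Co.vec TGF-β and 155, 147 and 140 CPM in LETS1 TGF-β libraries. All LETS1 libraries were higher. It rose by 0.21 (SE 0.0477, edgeR adjusted p = 0.0019) and kept the call with each library left out (adjusted p up to 0.0318). In buffer it had 122, 133 and 139 CPM without and 142, 143 and 138 with LETS1.

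Of the other genes for subunit c, ATP5MC1 had 118, 111 and 133 CPM in Co.vec TGF-β and 145, 138 and 131 CPM in LETS1 TGF-β, overlapping. It was higher by 0.19 with LETS1 under TGF-β (adjusted p = 0.0235) and fell by 0.15 with TGF-β in Co.vec cells (adjusted p = 0.0418), calls lost in 4 and 7 of 12 left-out fits (adjusted p up to 0.182 and 0.297). The fall was also lost in 4 of 6 other settings (adjusted p up to 0.0757), the rise in none. ATP5MC2 passed in none, with log2 fold changes from -0.00 to 0.10. The 3 genes encode the same mature protein from different precursors.

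ATP5F1B, the most abundant nuclear member, had 991, 977 and 912 CPM in Co.vec TGF-β and 1046, 1069 and 1067 CPM in LETS1 TGF-β libraries, with no overlap. It was higher by 0.14 (adjusted p = 0.0132, up to 0.0856 with 1 library left out, lost without Co.vec TGF-β replicate 3 or LETS1 TGF-β replicate 2). Its partner in the catalytic head, ATP5F1A, had log2 fold changes from -0.06 to 0.05 and passed in none. ATP5PB, part of the stalk, had 143, 142 and 145 CPM in Co.vec buffer and 133.6, 134.6 and 122.6 CPM with TGF-β. It fell by 0.14 (adjusted p = 0.0142), a call lost without Co.vec buffer replicate 3 or Co.vec TGF-β replicate 3 (adjusted p up to 0.144) and with no filter (adjusted p = 0.0597).

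ATP5MJ, a small membrane subunit of the synthase, was the 1 nuclear member lower with LETS1 in buffer. It had 86.9, 87.8 and 88.8 CPM in Co.vec buffer and 81.1, 73.5 and 72.6 CPM in LETS1 buffer, with no overlap, and fell by 0.21 (SE 0.0559, adjusted p = 0.00582). Without LETS1 buffer replicate 3 the adjusted p was 0.0516. With TGF-β its levels were 84.8, 86.9 and 73.1 CPM in Co.vec and 82.1, 78.3 and 74.5 CPM in LETS1 cells. ATP5IF1, which blocks the synthase from running in reverse, had a log2 fold change of 0.17 for LETS1 with TGF-β (adjusted p = 0.0684).

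The 21 calls of members were small and not equally firm. Of these, 4 kept their call in all 12 left-out fits and all 6 other settings: MT-ND1 for TGF-β in both cell populations, NDUFV3 for TGF-β in Co.vec cells and ATP5MC3 for LETS1 with TGF-β. The 8 falls of nuclear members in Co.vec cells depended on single libraries. Without Co.vec buffer replicate 3, only NDUFV3 was lower, and without Co.vec TGF-β replicate 3, 2 were lower and 1 was higher. Without Co.vec TGF-β replicate 1, 5 were lower. The 6 rises with LETS1 under TGF-β became 2 without LETS1 TGF-β replicate 1 and 3 without replicate 2.

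Promoters of 72 of the 88 protein-coding nuclear members were found in a RefSeq table (GRCh38.p14), each with 250 bases before and 50 after the start. The NRF1 core GCATGCGC, on either strand, was in 14 of 72 (19.4%), against 3.27% of all 27305 promoters. The ETS letters CCGGAAG, which GABP can bind, were in 20 (27.8%, against 10.7%), and the YY1 core ATGGCGGC in 11 (15.3%, against 3.21%). All YY1 matches but that of NDUFS8 lay 11 to 30 bases after the start. The core holds the letters ATG, and whether these matches fall in coding sequence was not tested. TATAAA was in 5 (6.94%, against 12%). Member promoters had a median GC content of 60.8%, against 58.3% for all. Such matches are letters in the window and were not tested as binding sites. Of the members with a call, NDUFV3, NDUFC1, NDUFAF7, NDUFAF8, ATP5MC1, ATP5MJ and ATP5PB had none of these NRF1, ETS and YY1 letters. This was not particular to called members: ATP5F1A, COX5A and UQCRFS1, without a call, had none either. COX6A1 and NDUFS8 had matches, and ATP5MC3 and ATP5F1B were among the promoters not found. Any link between the letters and the calls was not tested. The promoters of 4 members with a call and a match are shown to make the letters visible, in capitals. NDUFA6 has 1 NRF1 core, and SDHD has 2 overlapping NRF1 cores and 1 ETS match. NDUFS3 has 2 ETS matches and 1 YY1 core, and UQCRC1 has 1 YY1 core.
NDUFA6 (chr22:42090723-42091022, minus strand): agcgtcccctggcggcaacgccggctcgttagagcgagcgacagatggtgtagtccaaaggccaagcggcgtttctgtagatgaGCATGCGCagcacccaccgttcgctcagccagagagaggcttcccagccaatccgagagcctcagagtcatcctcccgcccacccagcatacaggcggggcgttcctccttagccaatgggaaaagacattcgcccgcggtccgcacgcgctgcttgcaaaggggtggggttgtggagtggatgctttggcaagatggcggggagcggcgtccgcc
SDHD (chr11:112086623-112086922, plus strand): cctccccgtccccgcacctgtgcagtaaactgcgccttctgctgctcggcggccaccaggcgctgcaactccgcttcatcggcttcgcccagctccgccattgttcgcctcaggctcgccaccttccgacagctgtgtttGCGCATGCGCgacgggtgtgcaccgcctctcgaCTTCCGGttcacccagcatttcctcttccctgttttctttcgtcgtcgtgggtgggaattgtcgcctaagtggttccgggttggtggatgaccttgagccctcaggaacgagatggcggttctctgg
NDUFS3 (chr11:47578824-47579123, plus strand): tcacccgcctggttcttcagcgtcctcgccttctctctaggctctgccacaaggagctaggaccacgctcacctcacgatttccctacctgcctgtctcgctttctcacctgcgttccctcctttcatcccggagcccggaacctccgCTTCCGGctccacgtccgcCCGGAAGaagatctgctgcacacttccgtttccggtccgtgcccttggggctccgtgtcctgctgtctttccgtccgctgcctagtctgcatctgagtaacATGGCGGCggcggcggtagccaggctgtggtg
UQCRC1 (chr3:48609597-48609896, minus strand): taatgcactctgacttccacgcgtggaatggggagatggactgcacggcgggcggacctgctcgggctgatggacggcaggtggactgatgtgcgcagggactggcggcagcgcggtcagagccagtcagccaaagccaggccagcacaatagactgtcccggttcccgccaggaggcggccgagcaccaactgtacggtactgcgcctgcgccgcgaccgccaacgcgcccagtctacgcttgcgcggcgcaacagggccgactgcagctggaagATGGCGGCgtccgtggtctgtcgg

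Among regulators, PPARGC1A passed in all 4 comparisons of 2 groups. This coactivator, which drives mitochondrial biogenesis, stood at 20.4, 16.9 and 16.7 CPM in Co.vec buffer, 8.63, 9.69 and 11.4 in Co.vec TGF-β, 36.4, 34.1 and 32.6 in LETS1 buffer and 15.8, 15.7 and 18.1 in LETS1 TGF-β. Co.vec TGF-β libraries were lowest and LETS1 buffer libraries highest. It was higher with LETS1 by 0.93 in buffer (SE 0.0804, adjusted p = 1.21e-11) and 0.74 with TGF-β (SE 0.0982, adjusted p = 3.65e-07). TGF-β lowered it: it fell by 0.86 in Co.vec cells (adjusted p = 2.13e-09) and by 1.05 in LETS1 cells (adjusted p = 1.47e-13). The interaction did not pass (-0.19, adjusted p = 0.799).

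Of 10 regulators listed, 3 were higher and 2 lower with TGF-β in Co.vec cells (30% and 20%, against 21.1% and 18.6% of all genes). In LETS1 cells 2 were higher and 3 lower (20% and 30%, against 19.7% and 19.1%). PPARGC1B, a close relative of PPARGC1A, fell by 0.37 (adjusted p = 0.0095) in Co.vec cells and by 0.29 (adjusted p = 0.0373) in LETS1 cells, where the call was lost in 5 of 12 left-out fits and 3 of 6 other settings (no filter, scaling on nuclear genes alone and DESeq2, adjusted p up to 0.154). GABPB1, which pairs with GABPA to form GABP, rose by 0.64 (adjusted p = 4.18e-10) and 0.46 (adjusted p = 4.37e-07). ESRRA, the partner of PPARGC1A in activating metabolic genes, rose by 0.19 in Co.vec cells (adjusted p = 0.0193). NRF1, GABPA, YY1, PPRC1 and TFAM, which packages and transcribes mitochondrial DNA, passed in no comparison. TFAM had log2 fold changes from -0.01 to 0.09.

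**Figure D5:**
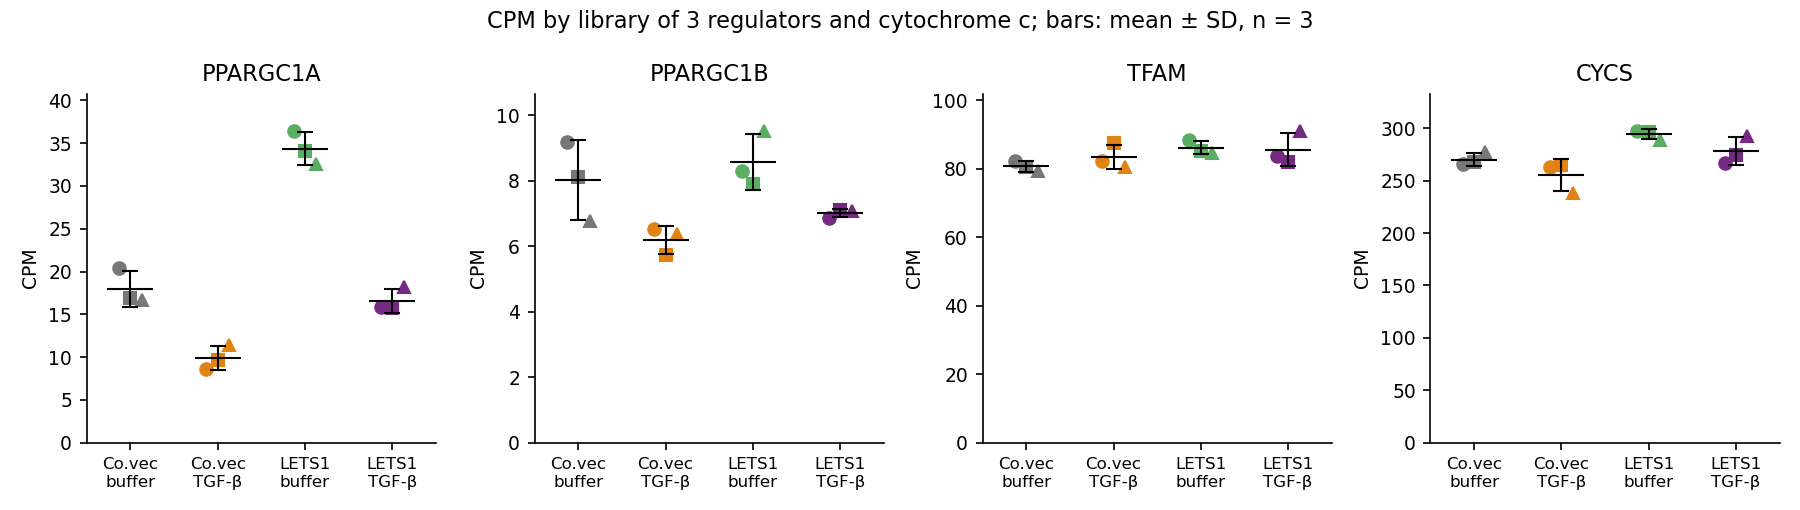
CPM by library of PPARGC1A, PPARGC1B, TFAM and CYCS (cytochrome c), axes from 0. Circles, squares and triangles are replicates 1, 2 and 3, and bars are mean ± SD of 3. PPARGC1A was near 34 CPM in LETS1 buffer and near 10 CPM in Co.vec TGF-β libraries, while TFAM and CYCS passed in no comparison.

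The mobile electron carrier cytochrome c (CYCS) passed in none, with 0.12 for LETS1 in both states (adjusted p = 0.0551 and 0.0668). CYC1, the cytochrome c1 of complex III, which the symbol rule does not take in, was higher by 0.21 with LETS1 under TGF-β (adjusted p = 0.039), a call lost in 6 of 12 left-out fits.

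Assembly factors outside the symbol rule, listed with earlier results known, help build the complexes. With TGF-β in Co.vec cells 17 of 46 tested were lower and 2 higher (37.0% lower, against 18.6% of all genes), and in LETS1 cells 9 were lower and 2 higher (19.6% lower, near the 19.1% of all genes). LYRM7, which delivers the Rieske protein to complex III, fell by 0.47 (adjusted p = 5.01e-07) and 0.53 (adjusted p = 1.51e-08). COX15, needed to make heme A for complex IV, fell by 0.29 and 0.24 (adjusted p = 6.1e-05 and 0.000846). COA7 fell by 0.29 and 0.17 (adjusted p = 0.000218 and 0.0243, the second lost without LETS1 buffer replicate 1 or 2 or LETS1 TGF-β replicate 1 and in DESeq2), and COA1 by 0.26 in Co.vec cells (adjusted p = 0.000159). LETS1 gave 2 higher in buffer (4.35%, against 8.57% of all genes), and 2 higher and 2 lower with TGF-β (4.35% each, against 7.58% and 6.5%).

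Of 75 mitochondrial ribosomal proteins tested, which translate the 13 mitochondrial messages, 14 were lower and 2 higher with TGF-β in Co.vec cells (18.7% lower, against 18.6% of all genes). In LETS1 cells 10 were lower (13.3%, against 19.1%). MRPL18 and MRPS27 fell by 0.28 and 0.24 in Co.vec cells (adjusted p = 2.97e-05 and 3.05e-05) and by 0.27 and 0.25 in LETS1 cells. LETS1 gave 3 higher and 4 lower in buffer (4% and 5.33%, against 8.57% and 6.56% of all genes). With TGF-β it gave 7 higher and 1 lower (9.33% and 1.33%, against 7.58% and 6.5%). MRPL50 fell with LETS1 in buffer by 0.32 (adjusted p = 3.68e-05) and MRPS21 rose by 0.26 (adjusted p = 0.000486). Of 31 genes for mitochondrial DNA upkeep and expression, 6 were lower and 1 higher in Co.vec cells with TGF-β (19.4% lower, near the 18.6% of all genes, and 3.23% higher, against 21.1%). In LETS1 cells 2 were lower (6.45%, against 19.1%) and 1 was higher. MTERF4, which acts on mitochondrial ribosome assembly, fell in Co.vec cells by 0.38 (adjusted p = 5.37e-05). POLG2, the accessory subunit of the mitochondrial DNA polymerase, fell by 0.41 in LETS1 cells (adjusted p = 7.12e-05).

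The citric acid cycle and pyruvate dehydrogenase feed electrons to the chain. Of 22 genes tested, LETS1 gave 5 higher and 1 lower in buffer (22.7% and 4.55%, against 8.57% and 6.56% of all genes). With TGF-β it gave 6 higher and 1 lower (27.3% and 4.55%, against 7.58% and 6.5%). TGF-β gave 2 higher and 7 lower in Co.vec cells (9.09% and 31.8%, against 21.1% and 18.6% of all genes). In LETS1 cells it gave 3 higher and 6 lower (13.6% and 27.3%, against 19.7% and 19.1%). PDK4, the kinase that switches off pyruvate dehydrogenase, had 236, 223 and 219 CPM in Co.vec buffer and 93.7, 96.9 and 103 with TGF-β, and fell by 1.21 (adjusted p = 9.82e-23). In LETS1 cells it fell by 1.56 (adjusted p = 4.59e-26). DLAT, a core subunit of pyruvate dehydrogenase, rose by 0.37 and 0.33 (adjusted p = 2.21e-08 and 1.97e-07), and OGDH, of the cycle, fell by 0.24 in both. IDH2, the mitochondrial NADP-linked isocitrate dehydrogenase, was higher by 0.29 with LETS1 under TGF-β (adjusted p = 4.28e-05).

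The 14 nuclear genes with fewer than 100 fragments were not tested. They were ATP5ME with 89, NDUFA7 with 83, UQCRFS1-DT with 75, NDUFB2-AS1 with 40, COX7A1 with 37, UQCRB-AS1 with 20, NDUFV1-DT with 6, ATP5MGL with 3, COX4I2 and COX7B2 with 1 each, and COX6A2, COX8C, ATP5MF-PTCD1 and NDUFC2-KCTD14 with 0. Just above the limit lay NDUFA6-DT with 157, NDUFA4L2 and NDUFV2-AS1 with 165, COX6B2 with 188, NDUFA13 and NDUFB8 with 190 and NDUFS7 with 207 fragments. Several of these encode subunits of the assembled complex and overlap other genes in GENCODE 29: 61.6% of the exon bases of ATP5ME, 49.1% of NDUFS7, 48.5% of NDUFB8, 33.5% of NDUFA7 and 21.0% of NDUFA13. Such overlap was not particular to low rows: NDUFB11 had 44.9% with 21072 fragments and NDUFA1 44.5% with 13680. SDHA, with 504 fragments, had 0.0%. Fragments matching several genes, 10.1% to 10.9% of all fragments, were set apart in the deposited table, and the part of this in their low counts was not tested. Among these rows, NDUFB8 had a log2 fold change of -0.59 for LETS1 in buffer (adjusted p = 0.188) and COX6B2, a testis form, had 0.63 for TGF-β in Co.vec cells (adjusted p = 0.134).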

How the data were processed

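RNA of A549 cells was sequenced in 12 libraries, 3 in each of 4 groups. Per the submitters' processing notes, reads were handled with FastQC, cutadapt 2.10, STAR 2.7.5a and HTSeq 0.12.4 on GRCh38. The values the authors deposited are unnormalized counts of fragments for 60676 gene rows. Rows that name no gene (no feature, ambiguous, low quality, unaligned, not unique) were left out of library sizes: they held 2.81% to 3.53%, 10.1% to 10.9%, 0.00709% to 0.00764%, 2.93% to 4.27% and 1.99% to 2.29% of all fragments. Neither strand setting nor annotation release is stated, so overlapping and antisense genes cannot be told apart. Symbols were matched for 60357 rows, and coordinates and exon lengths came from GENCODE 29.

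Genes were filtered with filterByExpr of edgeR 4.0.16 (R 4.3.3), scaled by TMM and fitted with a robust quasi-likelihood model with 1 mean per group over all 12 libraries (common biological coefficient of variation 0.0413). P-values were adjusted by Benjamini-Hochberg over 16192 genes within each of 5 contrasts, and an adjusted p under 0.05 was called. The model was tested on simulated data. CPM used TMM-scaled library sizes, and standard errors (SE) were derived from the F statistic of each contrast. The ratio of genomes used summed raw counts.

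Members and lists were chosen with earlier results of these data known. The named genes were all mitochondrial members, called nuclear members (up to 8 rises and 8 falls a contrast), a fixed set of subunits, and for related lists up to 4 genes with the smallest adjusted p, plus fixed regulators. Alternatives were RLE size factors, no filter, a replicate block, scaling on nuclear genes alone, the libraries of a contrast alone, DESeq2 1.42.0, a log2 fold change of at least 0.2, and each library left out in turn. For the ratio, the mean of log2(CPM + 0.5) per member and sums without some members were tried. Same-numbered replicates did not deviate together (0 of 18 pairs with a residual correlation over 0.1, highest 0.047), so they were treated as unpaired. Figures were drawn with matplotlib 3.10.9, and sequences were aligned with Biopython 1.88.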

Additional observations from a re-analysis of the deposited data

Results flagged for a closer look

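PDK4, the kinase that switches off pyruvate dehydrogenase, fell with TGF-β in both cell populations, and the fall was larger with LETS1. The difference between the ligand responses was -0.35 on the log2 scale (SE 0.0686, edgeR adjusted p = 0.00287), with means of 226 and 97.9 CPM in Co.vec buffer and TGF-β and 236 and 80.2 CPM in LETS1 cells. It kept its call with each library left out (adjusted p up to 0.0185).

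COL1A1, listed as a marker of fibroblasts, rose with TGF-β by 3.24 in Co.vec and 2.83 in LETS1 cells on the log2 scale. The difference between these responses was -0.40 (edgeR adjusted p = 0.0206).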

How the results depend on the processing

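No called result reversed. Log2 ratios of mitochondrial to nuclear fragments stayed within 1 pooled SD of the reported values under each alternative. With 1 library left out they ran from -0.02 to 0.07 and from -0.08 to 0.03 for LETS1 in buffer and with TGF-β, from -0.06 to 0.05 and from -0.10 to -0.01 for TGF-β in Co.vec and LETS1 cells, and from -0.11 to -0.00 for the interaction.

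Counts of called members rested on few genes near the threshold. For LETS1 in buffer, the 2 nuclear calls became 5 with the libraries of the contrast alone, and 1 with DESeq2, with a log2 fold change of at least 0.2 or with the replicate block. The 0 mitochondrial calls became 4 without a filter and 2 with the contrast alone. For LETS1 with TGF-β, the 6 nuclear calls became 2 with a log2 fold change of at least 0.2, and the 0 mitochondrial calls became 1 with the contrast alone or DESeq2. For TGF-β in Co.vec cells, the 8 nuclear calls became 5 with the replicate block, with scaling on nuclear genes or with DESeq2, and 2 with a log2 fold change of at least 0.2. The 2 mitochondrial calls became 4 with the contrast alone and 1 with DESeq2. For TGF-β in LETS1 cells, the 2 nuclear calls became 4 without a filter, 1 with RLE, the replicate block or a log2 fold change of at least 0.2, and 0 with DESeq2. The 1 mitochondrial call became 2 with the replicate block. The causes were not tested.

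With 1 library left out, nuclear counts in the order above ran from 0 to 5, 2 to 8, 1 to 12 and 1 to 3, and mitochondrial counts from 0 to 2, 0 to 1, 1 to 2 and 1 to 3. The interaction gave 0 in every fit. Replicate numbers gave no sign of pairing, and 5 of 12 libraries correlated best with their own number. Among single genes, over members and related genes, 6776 values stayed on the same side of the threshold, 174 no longer passed and 75 newly passed. For nuclear members the median coefficient of variation within groups was 6.24%, against 3.14% from counting error alone.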

Other observations

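MYC and HIF1A, regulators of metabolism in many cancer cells, are genes outside the subunit families. MYC was higher with LETS1 in buffer by 0.26 on the log2 scale (edgeR adjusted p = 0.000602) and fell by 0.18 with TGF-β in LETS1 cells (adjusted p = 0.00899, up to 0.0564 with 1 library left out). HIF1A, the oxygen-regulated subunit of hypoxia-inducible factor 1, rose with TGF-β by 0.15 in Co.vec cells (adjusted p = 0.00294) and by 0.24 in LETS1 cells (adjusted p = 8.09e-06), and was higher by 0.20 with LETS1 under TGF-β (adjusted p = 0.000398). SSBP1, which binds single-stranded mitochondrial DNA, fell by 0.26 with LETS1 in buffer (adjusted p = 0.00741). FASTKD1, of a family that acts on mitochondrial RNA, fell by 0.30 with TGF-β in LETS1 cells (adjusted p = 0.00222).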
